A study of Homo sapiens with 4 samples.

Results

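The genes described are 7 matrix metalloproteinases (MMP1, MMP2, MMP7, MMP9, MMP14, MMP15 and MMP24) and 3 inhibitors of these enzymes (TIMP1, TIMP2 and RECK). They were chosen by gene symbol from the expression table of MHCC-97H, a human hepatocellular carcinoma cell line, and each of the 10 was found once among 33478 genes. The line was profiled by paired-end RNA sequencing in 4 libraries. Cells of 2 libraries carried a control short hairpin RNA (titled SH-NC) and cells of the other 2 an shRNA against UCK2 (titled SH-UCK2-B), the kinase that phosphorylates uridine and cytidine. No wild-type or untransduced cells were analysed here, so an effect shared by both shRNA vectors cannot be seen. The labels name no time after transduction, no clone and no separate cultures, and p-values therefore measure only the spread between these libraries, which may be technical. Both UCK2 libraries carry the letter B, so effects particular to 1 hairpin and effects of targeting UCK2 cannot be told apart.

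Matrix metalloproteinases are zinc-dependent proteases that cut collagens, laminins, other matrix proteins and many cell surface proteins. They are made as inactive proforms, and a cysteine of the propeptide blocks the zinc until the propeptide is removed. Some are secreted, such as the collagenase MMP1, the gelatinases MMP2 and MMP9 and matrilysin, MMP7. MMP14, MMP15 and MMP24 are held in the membrane and are cut to their active form by furin-type proteases before they reach the surface. TIMPs bind the active site of the mature enzymes, and TIMP2 also links pro-MMP2 to MMP14, which activates it. RECK is a glycoprotein anchored in the membrane that restrains several of these enzymes. In liver cancer these genes are studied for their part in invasion, and MHCC-97H is a line chosen for its metastatic capacity.

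Levels are in TPM, a transcript abundance scaled to a fixed total and corrected for gene length and so comparable between genes. TPM keeps no read depth, so depth is unknown and no counting interval is given. UCK2 itself measured 135.7 and 93.6 TPM in the control libraries and 120.5 and 67.8 TPM in those labelled UCK2 shRNA (log2 difference -0.31 ± 0.30 SE, limma adjusted p = 0.640). The targeted gene thus did not separate the labels, and groups are named by their label throughout. Between 14.9% and 35.7% of the TPM total lay outside the rows used here, with the higher shares in the UCK2 shRNA libraries. Across the 14038 genes tested the median log2 difference was -0.22, and it was -0.01 after median-ratio scaling, which sets the typical gene to the same level in each library. Differences over all 4 libraries are therefore given on both scales below. Of 14 hepatocyte and hepatoma markers 10 averaged at least 1 TPM, among them KRT8, HNF4A, ALB and AFP. GPC3, EPCAM, APOA2 and APOB, listed at up to 0.0711, 0.427, 0.321 and 0.968 TPM, did not. The summed level of the 14 ran from 2731 and 2367 TPM in the UCK2 shRNA libraries to 3105 and 4177 TPM in the controls, most of it KRT8 and KRT18.

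Stromal and immune cells are rich sources of metalloproteinases in tissue, and markers of them were read beside the genes described. Of 10 fibroblast and stellate cell markers only LUM averaged at least 1 TPM. It measured 27.6 and 5.85 TPM in the control libraries against 19.1 and 12.7 TPM in the UCK2 shRNA libraries. The summed level of the 10 was 29.6 and 7.44 TPM in the control libraries against 22.3 and 18.3 TPM in the UCK2 shRNA libraries. COL1A1, COL1A2 and COL3A1 reached at most 1.16, 0.691 and 0.372 TPM. Of 8 macrophage and leukocyte markers CD68 and ITGAM reached a mean of 1 TPM, at 43.7 to 54.6 and 4.35 to 5.99 TPM. PTPRC stayed at or under 0.551 TPM, and AIF1 was listed at 0 in every library. Of 6 endothelial markers only PECAM1 reached that mean, at 20.4 to 24.5 TPM. CDH5 was listed at 0 in 3 libraries and at 0.0153 TPM in control replicate 1. The labels' extraction text speaks of retinas. All 8 retina markers averaged under 1 TPM and summed to between 1.47 and 2.31 TPM. In bulk RNA, fewer cells of a kind and less RNA per cell cannot be told apart.

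MMP7 was the metalloproteinase that dominated the family in these cells, and the stretch before its start is shown first. RefSeq sequences (GRCh38.p14) before the start were matched for 6 of the 10 genes. The start here is that of RefSeq, which can differ from the end of the gene span as deposited. MMP1, MMP2, MMP9 and TIMP2 were not matched. Nor were MMP3, MMP12 and MMP13, which with MMP1 lie in the same gene cluster as MMP7. The 250 bases before the start are given 5′ to 3′ for MMP7 (chr11:102530748-102530997, minus strand), MMP10 (chr11:102780629-102780878, minus strand) and TIMP1 (chrX:47582186-47582435, plus strand). MMP10 lies in the same gene cluster as MMP7, with MMP20, MMP27 and MMP8 between them. Capitals mark exact matches, on either strand, to TGAGTCA (a form of the AP-1 motif), CTTTGAA (a form of the TCF motif) and TATAAA (a form of the TATA box). No 2 matches overlap.
MMP7: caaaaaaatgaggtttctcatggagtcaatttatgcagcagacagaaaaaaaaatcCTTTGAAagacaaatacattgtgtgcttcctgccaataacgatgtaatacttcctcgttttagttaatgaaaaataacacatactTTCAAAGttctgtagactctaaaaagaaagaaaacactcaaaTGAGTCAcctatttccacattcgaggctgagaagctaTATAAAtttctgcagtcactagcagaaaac
MMP10: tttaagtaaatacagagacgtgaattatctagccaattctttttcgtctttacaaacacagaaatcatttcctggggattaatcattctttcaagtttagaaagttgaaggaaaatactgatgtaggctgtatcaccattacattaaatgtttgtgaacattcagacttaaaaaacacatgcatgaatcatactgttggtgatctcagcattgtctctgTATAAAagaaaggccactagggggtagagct
TIMP1: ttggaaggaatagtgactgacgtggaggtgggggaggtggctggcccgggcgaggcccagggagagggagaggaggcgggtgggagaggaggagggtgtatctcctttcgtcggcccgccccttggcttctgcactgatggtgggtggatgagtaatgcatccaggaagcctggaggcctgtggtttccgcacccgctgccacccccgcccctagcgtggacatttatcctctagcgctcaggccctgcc
The MMP7 window held exact matches to all 3 motifs. MMP7 was known as a TCF target beforehand, and enrichment of the motifs was not tested. TGAGTCA stood 67 to 61 bases before the start and TATAAA 30 to 25 bases before it. CTTTGAA stood 194 to 188 bases before the start, and on the other strand, read as TTCAAAG, 109 to 103 bases before it. Of 35116 windows of the same length, 4.2% held TGAGTCA, 3.8% CTTTGAA and 10.7% TATAAA, on either strand. Exact matches in MMP10, MMP20 and MMP8 were to TATAAA alone. MMP27, TIMP1, MMP14, MMP15, MMP24 and RECK held no exact match to any of the 3. The windows of RECK and MMP8 lie wholly inside the gene span as deposited. Those of MMP7, TIMP1, MMP14, MMP15, MMP24 and MMP27 reach into it, so these windows are not all sequence outside the gene. Bases G and C made up 33.6% of the MMP7 window and 64.8% of that of TIMP1, against a median of 58% over all windows. These matches describe the letters only, and a link between them and the levels was not tested. Near matches, such as tgagtaa in the TIMP1 window and tgaatca in the MMP10 window, were not counted. The tgaatca of MMP10 stands as far before the start as TGAGTCA does in the MMP7 window. A window without an exact match may thus still hold another form of a motif.

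MMP7 (ENSG00000137673) lies on chromosome 11 from 102520508 to 102530753 on the minus strand of hg38. It encodes matrilysin, a short secreted metalloproteinase made mainly by epithelial cells, and is a known target of beta-catenin and TCF in intestinal tumours. It measured 209.4 and 206.0 TPM in control replicates 1 and 2, against 178.1 and 175.9 TPM in UCK2 shRNA replicates 1 and 2. Replicates lay close together and the groups did not overlap, with both UCK2 shRNA libraries lower. The log2 difference of MMP7 was -0.23 ± 0.14 (SE; 95% interval -0.57 to 0.11; limma adjusted p = 0.463), next to a median of -0.22 for all genes. After scaling the MMP7 values were 176.5 and 205.4 against 194.0 and 189.5, the groups overlapped, and the log2 difference was 0.01 (interval -0.44 to 0.46, adjusted p = 0.998). Both intervals leave out a halving and a doubling of MMP7. By mean TPM MMP7 stood above 96.1% of the genes tested, and it made up 78.5% to 84.2% of the summed TPM of the 7 metalloproteinases.

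MMP7 is one end of a cluster of 9 metalloproteinase genes that spans 435 kb of chromosome 11, and only 2 of the 9 averaged at least 1 TPM. The other is MMP1. Between them lie MMP20, MMP27, MMP8 and MMP10, and beyond MMP1 lie MMP3, MMP12 and MMP13. MMP10, or stromelysin 2, measured 0.268 and 0.469 TPM in the control libraries against 0.126 and 0.436 TPM in the UCK2 shRNA libraries. MMP20, the enamel protease, stayed at or under 0.362 TPM and MMP3, or stromelysin 1, at or under 0.166 TPM. MMP27 and MMP12 were listed at 0 in every library, while MMP8 reached 0.0438 TPM and MMP13 0.0543 TPM. Expression in this cluster was thus held by 2 genes, MMP7 at a mean of 192.4 TPM and MMP1 at 9.40 TPM.

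**Figure D1:**
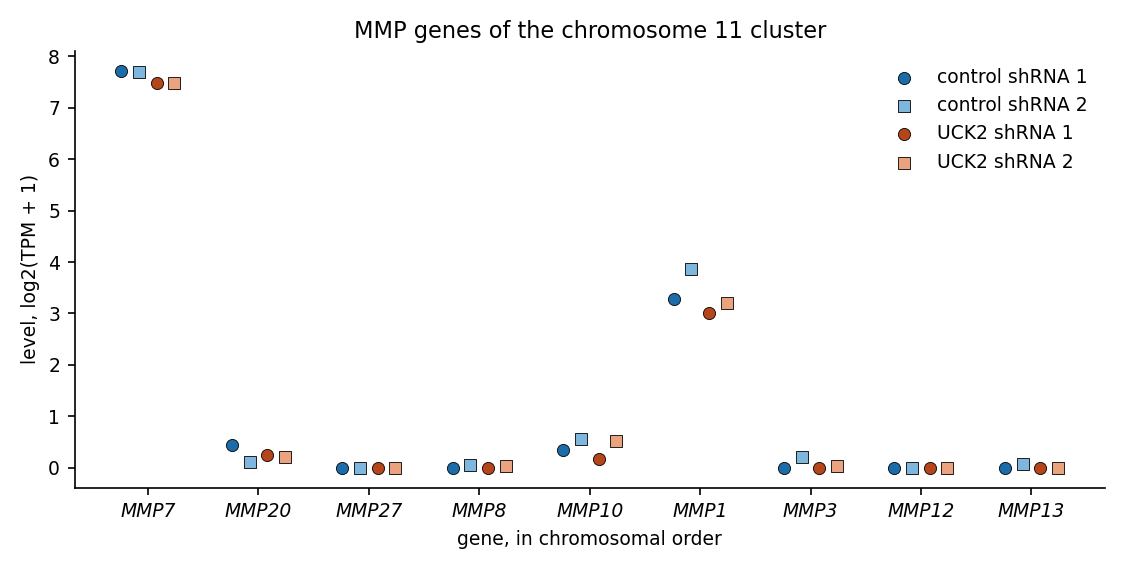
Level of each metalloproteinase gene of the chromosome 11 cluster, as log2(TPM + 1), in chromosomal order, with 1 point for each of the 4 libraries (circles replicate 1, squares replicate 2). MMP7 and MMP1 stand clear of 0 in all 4 libraries, and the other 7 genes stay under 0.5 TPM.

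MMP1 (ENSG00000196611, chromosome 11, 102789920 to 102798160, minus strand) encodes interstitial collagenase, which cuts the triple helix of fibrillar collagens. It measured 8.73 and 13.6 TPM in control replicates 1 and 2, against 7.10 and 8.18 TPM in the UCK2 shRNA libraries. Control replicate 2 was set apart from the other libraries, and the groups did not overlap. MMP1 had a log2 difference of -0.46 ± 0.28 (SE, interval -1.12 to 0.19, limma adjusted p = 0.446) and, scaled, of -0.25 (adjusted p = 0.955). With scaling and without control replicate 2 it was 0.16.

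The gelatinases, which cut denatured collagen and the type IV collagen of basement membranes, were low or near 0. MMP2 (ENSG00000087245, chromosome 16, 55389700 to 55506691, plus strand) measured 2.39 and 5.73 TPM in the control libraries against 2.59 and 4.66 TPM in the UCK2 shRNA libraries. In each group replicate 2 stood well above replicate 1, and the groups overlapped. The log2 difference of MMP2 was -0.08 ± 0.42 (SE, interval -1.06 to 0.90, limma adjusted p = 0.948) and 0.09 after scaling (adjusted p = 0.991). On the opposite strand within MMP2 lie the noncoding genes RP11-212I21.5, listed at 0 in every library, and RP11-212I21.2, at most at 0.246 TPM, and neither shares exon bases with it. MMP9 (ENSG00000100985, chromosome 20, 46008908 to 46016561, plus strand) was listed at 0.0248 and 0 TPM in the controls and at 0.0184 and 0.0200 TPM in the UCK2 shRNA libraries. It is the 1 gene of the 10 that missed the filter of a mean of 1 TPM, and it was not tested. The antisense gene RP11-465L10.10 overlaps 18.4% of its exon bases, and it reached at most 0.213 TPM.

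The 3 membrane-bound metalloproteinases among the 10 genes were measured above 2.8 TPM in every library, and MMP14 was the most abundant of them. MMP14 (ENSG00000157227, chromosome 14, 22836557 to 22849027, plus strand), the surface collagenase that activates pro-MMP2, measured 18.1 and 23.9 TPM in the control libraries against 13.5 and 17.8 TPM in the UCK2 shRNA libraries. Control replicate 1 and UCK2 shRNA replicate 2 differed by under 0.4 TPM, so the groups were separated only narrowly. Between the groups MMP14 differed by -0.40 ± 0.24 in log2 (SE; limma adjusted p = 0.446; interval -0.97 to 0.16). On the scaled values the groups overlapped and the difference was -0.18 (adjusted p = 0.965). MMP15 (ENSG00000102996, chromosome 16, 58025566 to 58046901, plus strand), a close relative of MMP14, measured 4.47 and 4.64 TPM in the control libraries against 4.08 and 2.86 TPM in the UCK2 shRNA libraries. The lowest library for MMP15 was UCK2 shRNA replicate 2, and its difference was -0.33 ± 0.29 (adjusted p = 0.610; scaled -0.13, adjusted p = 0.982). MMP14 made up 57.0% to 67.2% of the summed TPM of the 3 membrane-bound genes.

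MMP24 (ENSG00000125966, chromosome 20, 35226654 to 35277000, plus strand) encodes a membrane-bound metalloproteinase known from the nervous system, where it cuts cadherins. It measured 8.02 and 8.53 TPM in the control libraries against 6.07 and 5.84 TPM in the UCK2 shRNA libraries. Replicates differed by under 0.6 TPM, less than the distance between the groups. The log2 difference of MMP24 was -0.41 ± 0.24 (SE, interval -0.98 to 0.16, limma adjusted p = 0.438) and -0.20 after scaling (adjusted p = 0.955). It was the 1 gene of the 9 whose groups stayed apart after scaling, at 6.76 and 8.51 against 6.62 and 6.29, a gap of under 0.2. An antisense gene, MMP24-AS1, covers the whole of MMP24 on the opposite strand and shares 18.1% of its exon bases in GENCODE v29. MMP24-AS1 was the more abundant, at 48.6 and 57.1 TPM in the control libraries against 33.0 and 29.4 TPM in the UCK2 shRNA libraries (log2 difference -0.74, adjusted p = 0.294; scaled -0.51, adjusted p = 0.918). A further antisense gene, RP4-614O4.11, overlaps the end of MMP24, shares none of its exon bases and measured 0.543 to 1.90 TPM. No source used here says if counting kept the strand apart, and the share of MMP24-AS1 reads in the MMP24 values was not tested.

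TIMP1 (ENSG00000102265) lies on the X chromosome from 47582313 to 47586789 on the plus strand, within the span of the neuronal gene SYN1 on the opposite strand. The pair shares no exon bases in GENCODE v29, and SYN1 was listed at or under 0.0302 TPM. TIMP1 inhibits most secreted metalloproteinases and also acts as a growth factor. It was the most abundant of the 10 genes, above 97.1% of the genes tested, and measured 255.4 and 329.2 TPM in control replicates 1 and 2 against 222.5 and 188.2 TPM in the UCK2 shRNA libraries. The groups did not overlap, and control replicate 2 was the highest. The log2 difference of TIMP1 was -0.50 ± 0.18 (SE, interval -0.93 to -0.07), with an unadjusted p of 0.0285 and a limma adjusted p = 0.294. It is the 1 interval of the 9 that leaves out 0 as deposited. It took in 0 without control replicate 2 (-0.32, interval -0.79 to 0.16), without UCK2 shRNA replicate 2 (-0.38, interval -0.96 to 0.20) and with eBayes without trend (interval -1.09 to 0.08). After scaling TIMP1 was 215.4 and 328.1 against 242.4 and 202.8, so control replicate 1 fell between the UCK2 shRNA libraries, and the difference was -0.26 (interval -0.83 to 0.31, adjusted p = 0.955). With scaling and without control replicate 2 it was 0.05.

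TIMP2 and RECK were the other inhibitors. TIMP2 (ENSG00000035862, chromosome 17, 78852977 to 78925387, minus strand) measured 70.9 and 96.0 TPM in the control libraries against 58.6 and 66.0 TPM in the UCK2 shRNA libraries. The groups did not overlap as deposited and did after scaling. For TIMP2 the log2 difference was -0.40 ± 0.20 (SE, interval -0.87 to 0.06, limma adjusted p = 0.372) and -0.16 after scaling (adjusted p = 0.965). The antisense gene RP11-323N12.5 covers 6.52% of the exon bases of TIMP2, at 10.1, 6.11, 0 and 8.76 TPM in the same order of libraries. On the same strand KIAA1731NL, a coding gene, shares 3.52% of them and measured 0.157 to 1.01 TPM, and the antisense gene CTD-2373H9.5 shares none and stayed at or under 0.292 TPM. RECK (ENSG00000122707, chromosome 9, 36036433 to 36124451, plus strand) measured 6.05 and 3.76 TPM in the control libraries against 4.52 and 5.18 TPM in the UCK2 shRNA libraries. Both UCK2 shRNA values of RECK lay between the 2 controls. Its log2 difference was 0.01 ± 0.30 (SE, interval -0.70 to 0.72, limma adjusted p = 0.990) and 0.21 after scaling (adjusted p = 0.957).

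**Figure D2:**
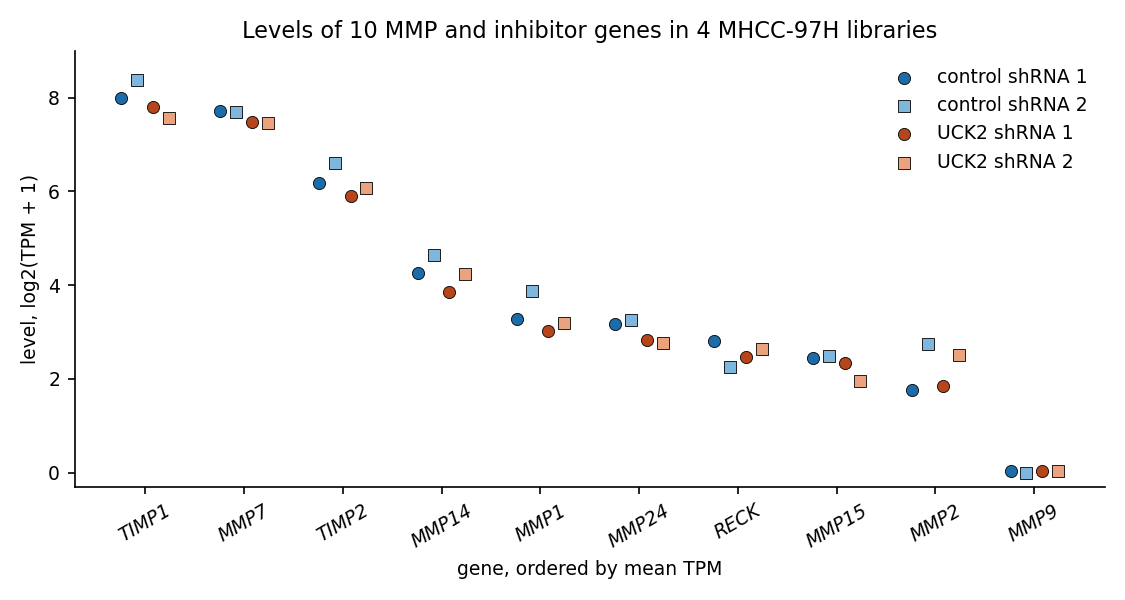
Level of each of the 10 genes as log2(TPM + 1), ordered by mean TPM, with 1 point for each of the 4 libraries (circles replicate 1, squares replicate 2). TIMP1 and MMP7 lead at means of 248.8 and 192.4 TPM, MMP9 lies at 0, and control replicate 2 is the highest point for 7 of the other 9 genes.

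Ordered by mean TPM over the 4 libraries, the genes ran TIMP1 (248.8), MMP7 (192.4), TIMP2 (72.9), MMP14 (18.3), MMP1 (9.40), MMP24 (7.12), RECK (4.88), MMP15 (4.02), MMP2 (3.84) and MMP9 (0.0158). TIMP1 exceeded MMP7 in all 4 libraries although their ranges overlapped. MMP7 and TIMP2 did not overlap, nor did TIMP2 and MMP14. From MMP14 to MMP24 each gene exceeded the next in all 4 libraries, though the ranges of neighbours overlapped. RECK, MMP15 and MMP2 were not ordered beyond their spread, since MMP15 exceeded MMP2 in only 2 libraries and RECK exceeded MMP15 in 3. MMP9 lay below all of them with no overlap.

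None of the 9 genes tested passed limma's threshold of an adjusted p of 0.05, in either direction, on either scale. The background was the same as deposited, where 0% of all genes passed (194 higher and 1962 lower at an unadjusted p under 0.05), and after scaling 0.0641% passed. At that unadjusted p only TIMP1 was lower among the 9, and 14% of all genes were, while after scaling 0 of the 9 were. Of the 9, 8 lay below 0 in log2 difference as deposited, as did 74.7% of all genes, and their median was -0.40 against -0.22. After scaling 6 of the 9 were below 0, against 50.8% of all genes, and the median was -0.16 against -0.01. Groups did not overlap, with the UCK2 shRNA libraries lower, for 7 of the 9 as deposited and for 1 after scaling, where the shares of all genes were 44.4% and 15.5%. They did not overlap in the other direction for 0 of the 9 as deposited, against 5.46% of all genes. After scaling that held for 0 of the 9 as well, and for 2251 of the 14038 genes tested. Intervals of 6 of the 9 left out a halving and a doubling of TPM + 1 as deposited, and 8 of the 9 did so after scaling, the other being MMP2. For low genes this does not hold for TPM itself. With a pseudocount of 0.1 as deposited, the lower limits were -1.08 for MMP24 and -1.02 for MMP14, which take in a halving.

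Control replicate 2 moved with these values. It was the highest of the 4 libraries for 7 of the 9 genes as deposited and for 8 after scaling, RECK being the exception, where it was highest for 26.1% and 35.4% of all genes. The 9 genes share their libraries, so these counts describe 1 library. Its part in the differences can be read from the values without it. On the scaled values without control replicate 2, the differences were 0.16 for MMP1, 0.14 for MMP14, 0.05 for TIMP1 and 0.18 for TIMP2, so the sign of these 4 turned. MMP15 (-0.01) and MMP24 (-0.05) stayed below 0, and MMP2 (0.68), MMP7 (0.13) and RECK (0.04) stayed above it. As deposited without that library, MMP1, MMP14, TIMP1 and TIMP2 kept their sign, at -0.17, -0.21, -0.32 and -0.19, while MMP2 turned, at 0.41.

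**Figure D3:**
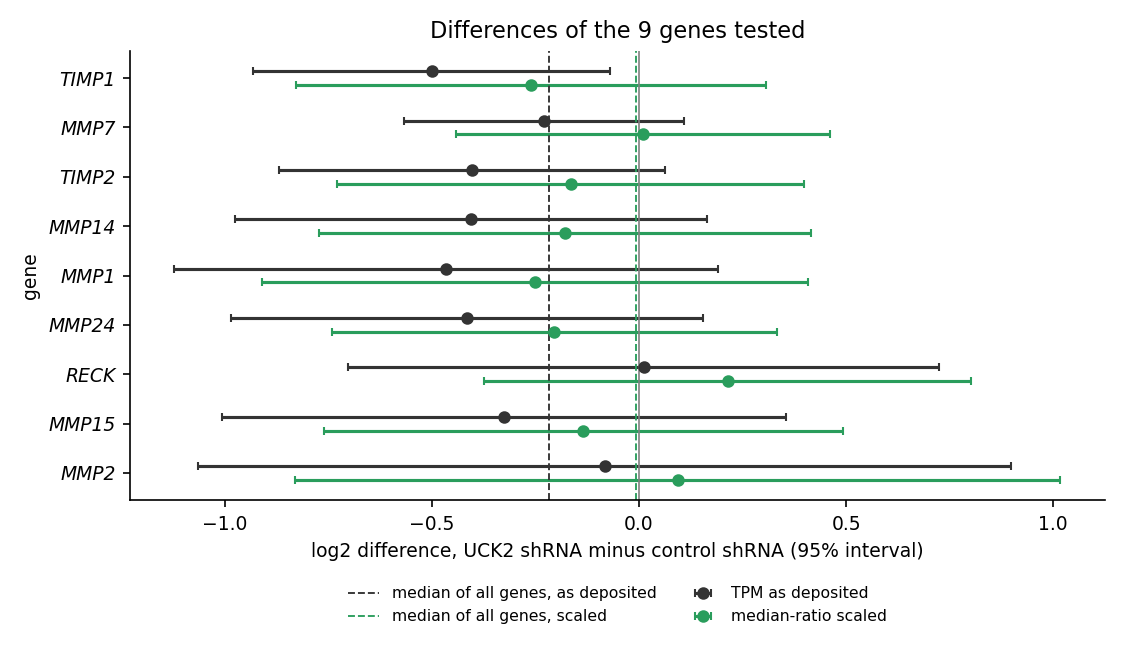
Log2 difference of the 9 genes tested, UCK2 shRNA minus control shRNA on the log2(TPM + 1) scale, with limma's 95% interval, for TPM as deposited (dark) and after median-ratio scaling (green). Dashed lines mark the median of all genes on each scale, -0.22 and -0.01, and every interval but that of TIMP1 as deposited reaches across 0.

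Ratios between these genes within a library do not depend on how that library was scaled. They are given for single libraries as a description and were not tested. MMP7 to TIMP1 was 0.820 and 0.626 in control replicates 1 and 2 and 0.800 and 0.935 in the UCK2 shRNA libraries. Control replicate 2 was the lowest, and control replicate 1 lay between the UCK2 shRNA libraries. MMP14 to TIMP2, the enzyme and the inhibitor that join in the activation of pro-MMP2, was the most even ratio, at 0.256 and 0.249 in the controls and 0.230 and 0.270 in the UCK2 shRNA libraries. The summed TPM of the 7 metalloproteinases to that of the 3 inhibitors was 0.756 and 0.612 in the controls and 0.740 and 0.830 in the UCK2 shRNA libraries. TPM of the inhibitors thus exceeded that of the enzymes in every library, and no ratio separated the groups. The differences of mean log2 ratio, UCK2 shRNA minus control on TPM + 1, were 0.27 for MMP7 to TIMP1 and 0.21 for the sums, and without control replicate 2 they were 0.08 and 0.05.

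**Figure D4:**
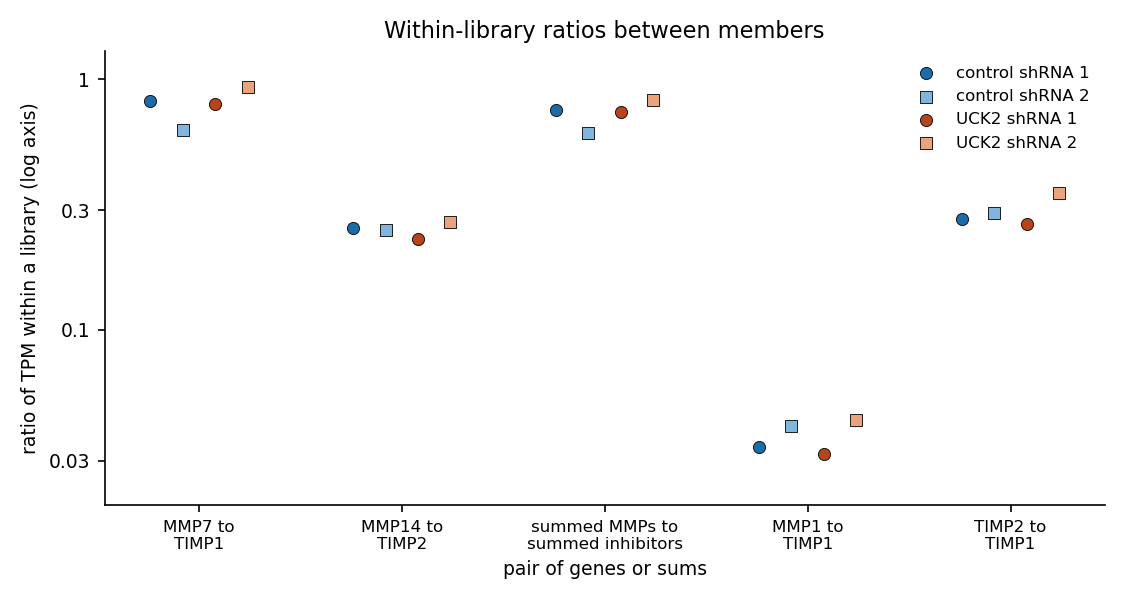
Ratio of TPM between 2 genes, or between summed TPM, within each of the 4 libraries, on a log axis (circles replicate 1, squares replicate 2). MMP14 to TIMP2 stays between 0.230 and 0.270, and the groups overlap in each of the 5 ratios.

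Other genes of the system were read from lists by role, and none of the 56 tested passed in either direction, with or without scaling. At an unadjusted p under 0.05, 0 were higher and 15 lower by limma as deposited, where 14% of all genes were lower. After scaling 0 were higher and 2 lower, where 1.42% of all genes were lower. Of 15 further metalloproteinases in the table only MMP25 and MMP28 averaged 1 TPM, and MMP16, MMP19 and MMP21 stayed at or under 0.104 TPM. MMP25, a membrane-bound metalloproteinase of leukocytes, measured 1.16 ± 0.637 and 1.47 ± 1.05 TPM in the control and UCK2 shRNA libraries (SD, n = 2 each). MMP28, or epilysin, measured 1.06 ± 0.0685 and 1.05 ± 0.123 TPM, and MMP17, under the filter, averaged 0.901 and 0.422 TPM. Of the 7 other inhibitors and related genes found, 3 were tested. TIMP4 measured 9.22 ± 1.91 and 7.01 ± 0.102 TPM (log2 difference -0.34, limma adjusted p = 0.545; scaled -0.13, adjusted p = 0.983, where the groups overlapped), more than RECK in every library. PCOLCE, an enhancer of procollagen processing, measured 7.35 ± 2.09 and 5.31 ± 1.25 TPM (log2 difference -0.40, scaled -0.19). TFPI2, a protease inhibitor of the matrix, measured 2.91 ± 0.836 and 2.64 ± 0.817 TPM (log2 difference -0.10, scaled 0.07). MMP11 and TIMP3 were not analysed here.

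Activators and inducers of metalloproteinases ran from HGF and ST14, under the filter at no more than 0.193 and 0.489 TPM, to MET, the receptor of HGF. Of 13 tested 12 had a log2 difference below 0 on the deposited values and 10 after scaling, with medians of -0.28 and -0.06. Of all genes 74.7% and 50.8% were below 0, with medians of -0.22 and -0.01. MET measured 1464 ± 389 and 1154 ± 9.06 TPM in the control and UCK2 shRNA libraries (SD, n = 2 each). Its log2 difference was -0.32 and, scaled, -0.08, where the groups overlapped. The lysosomal proteases CTSL and CTSB measured 796 ± 54.9 and 693 ± 91.7 TPM and 505 ± 64.3 and 424 ± 10.7 TPM. The log2 differences of CTSL and CTSB were -0.20 and -0.25 as deposited and 0.04 and -0.01 after scaling. HGF, ST14, FURIN, BSG and PLG are named after their values were seen. FURIN, which cuts the proforms of membrane-bound metalloproteinases, stood at 38.9 and 42.1 TPM in the control libraries and at 29.7 and 30.3 TPM in the UCK2 shRNA libraries (log2 difference -0.42, adjusted p = 0.320; scaled -0.19). BSG, a surface inducer of metalloproteinases, stood at 389.5 and 437.7 TPM against 278.9 and 249.7 TPM (log2 difference -0.64, adjusted p = 0.294; scaled -0.40, adjusted p = 0.955). PLG, the precursor of plasmin, which activates several proforms, stayed at or under 2.07 TPM (log2 difference 0.24, adjusted p = 0.746; scaled 0.39, adjusted p = 0.955).

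Among transcription factors that act on metalloproteinase promoters, 15 of 16 tested were below 0 as deposited and 12 after scaling, with medians of -0.36 and -0.13. The shares of all genes were 74.7% and 50.8%, with medians of -0.22 and -0.01. CTNNB1, or beta-catenin, the partner of TCF, measured 101.5 ± 8.04 and 75.2 ± 3.11 TPM (log2 difference -0.43, limma adjusted p = 0.297; scaled -0.19). JUND, an AP-1 subunit, measured 107.1 ± 8.58 and 56.5 ± 4.22 TPM (-0.91, adjusted p = 0.294; scaled -0.67, adjusted p = 0.753). ETV4, an ETS factor, measured 88.7 ± 2.54 and 60.7 ± 12.1 TPM (log2 difference -0.55, scaled -0.32, where the groups overlapped). Of 14 genes of surface transport and invadopodia 12 were below 0 and 9 after scaling (medians -0.29 and -0.05), beside the same shares of all genes. The transport genes included CAV1, the coat protein of caveolae, at 1412 ± 244 and 1126 ± 76.9 TPM (log2 difference -0.32, scaled -0.08). RAB7A, of late endosomes, measured 234 ± 0.0382 and 174 ± 2.88 TPM (-0.42, scaled -0.18). After scaling RAB7A was 197.2 and 233.2 in the control libraries against 187.4 and 189.8 in the UCK2 shRNA libraries. CTTN, or cortactin, measured 218 ± 41.8 and 180 ± 11.8 TPM (-0.27, scaled -0.03). On the deposited values without control replicate 1, JUND and RAB8A, a vesicle transport gene, passed limma's threshold (log2 differences -0.99 and -1.04, adjusted p = 0.0318 and 0.0354), with 350 genes passing in all.

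Matrix substrates of the enzymes were led by fibronectin. FN1 measured 1888 ± 97.5 and 1643 ± 188 TPM (log2 difference -0.20, limma adjusted p = 0.567; scaled 0.04). SDC1, a surface proteoglycan shed by metalloproteinases, measured 196.9 ± 12.8 and 123.8 ± 25.2 TPM (-0.68, adjusted p = 0.294; scaled -0.44). LAMB3, a laminin chain of epithelial basement membranes, measured 36.0 ± 4.71 and 27.2 ± 0.290 TPM (log2 difference -0.38, scaled -0.15, where the groups overlapped). All 8 substrates tested were below 0 as deposited and 5 after scaling, where 74.7% and 50.8% of all genes were. Their median was -0.21 as deposited and -0.05 after scaling, near the -0.22 and -0.01 of all genes. COL1A1, COL1A2 and COL3A1, the fibrillar collagens that MMP1 cuts, were under the filter.

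**Figure D5:**
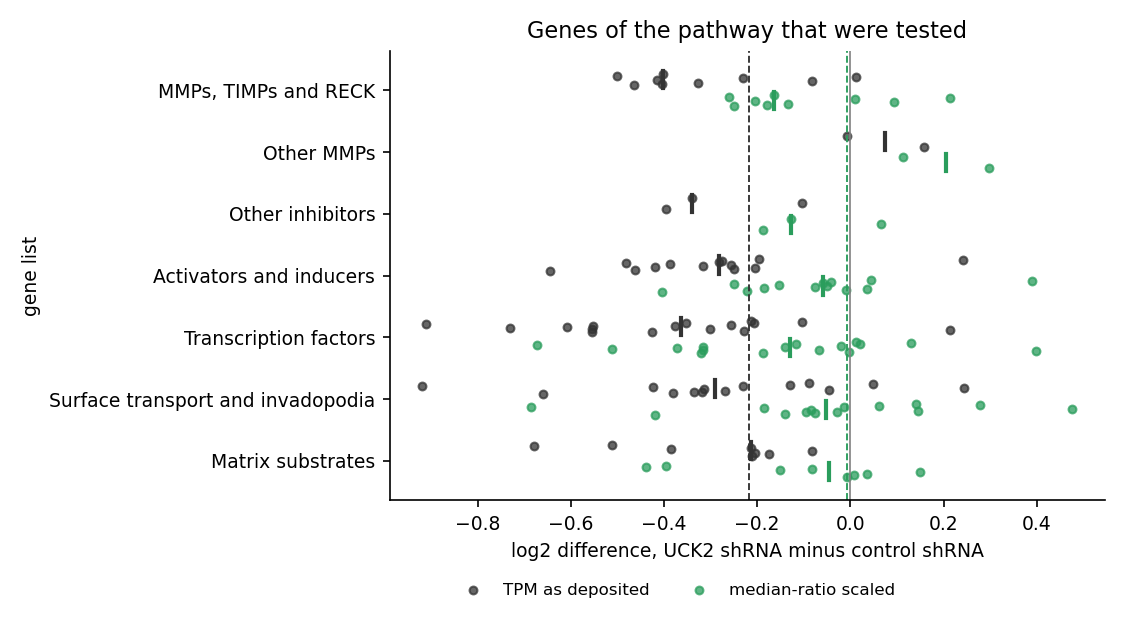
Log2 difference, UCK2 shRNA minus control shRNA, of each gene tested, by list, for TPM as deposited (dark) and after median-ratio scaling (green), with short bars at list medians. Dashed lines mark the medians of all genes, -0.22 and -0.01, and scaling moves each list toward higher values.

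The genes whose pattern over the 4 libraries was most like that of TIMP1 included MRPL55, of the mitochondrial ribosome, and ZNF576, a zinc finger gene. Likeness was the distance between deviations of log2(TPM + 1) from the gene's own mean, and it was 0.0305 and 0.0334 for these 2 of 7561 genes averaging at least 10 TPM. With 4 libraries such matches are common, and 89 genes lay within a distance of 0.1. MRPL55 measured 79.9 and 101.3 TPM in the control libraries against 67.5 and 57.4 TPM in the UCK2 shRNA libraries.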

How the data were processed

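RNA of MHCC-97H cells was sequenced in 2 control shRNA and 2 UCK2 shRNA libraries, grouped by title. Descriptions of the second replicates disagree with the titles, in the line number for the control and in UCK3 for UCK2. The deposited table gives TPM per gene, computed by the authors, on hg38. Tools listed, without roles, per the submitters' processing notes are TopHat2 2.0.14, HTSeq, DESeq and edgeR. Strand use is not stated.

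Genes with a mean of at least 1 TPM (14038 of 33478) were compared on log2(TPM + 1), which understates changes of low genes, with limma 3.58.1 in R 4.3.3 (lmFit, eBayes with trend). The p-values are two-sided and Benjamini-Hochberg adjusted over these genes, and the fit was tested on simulated data. Median-ratio factors were 1.19 and 1.00 (control replicates 1 and 2), 0.918 and 0.928 (UCK2 shRNA replicates 1 and 2). All 10 genes, the 3 most abundant genes of each list, genes overlapping the 10 and the 3 genes most like TIMP1 are named, except 1 that is not reported here, and others are said to be. The genes and lists were chosen with earlier results of these data known. Positions of the 10 genes were identical in GENCODE v29. Alternatives were other scalings, pseudocounts and filters, eBayes without trend, a block for the replicate number, and each library left out. Figures were drawn with matplotlib 3.10.9.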

Additional observations from a re-analysis of the deposited data

How the results depend on the processing

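No alternative brought any of the 9 genes tested past the threshold. Over 150 values the smallest limma adjusted p was 0.104, for TIMP1 without control replicate 1. Against the deposited values of all 4 libraries, the direction kept in 131 and turned in 19, for 8 of the 9 genes, MMP24 being the exception. MMP2 turned with median-ratio scaling (0.0935) and equal sums (0.20), and MMP7 with median-ratio scaling (0.0102), quantile normalization (0.18) and equal sums (0.13). Leaving out 1 library, MMP2 ran from -0.58 to 0.41 and RECK from -0.27 to 0.29, and RECK was -0.07 without UCK2 shRNA replicate 2. Median-ratio scaling with 1 library left out was chosen after seeing the data. Against the deposited values, 6 genes turned without control replicate 2 (MMP1 0.16, MMP2 0.68, MMP7 0.13, MMP14 0.14, TIMP1 0.0513, TIMP2 0.18). Another 2 values turned without UCK2 shRNA replicate 1 (MMP2 0.43, MMP14 0.00813) and 2 without UCK2 shRNA replicate 2 (MMP7 0.0298, MMP15 0.0754). MMP2 and MMP7 were already above 0 with scaling of all 4 libraries. Without 1 library, 1 group holds a lone sample that is assumed to vary like the other group. The cause of these turns was not tested.

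Over all genes the count passing was 0 as deposited, 9 with median-ratio scaling, 8 with quantile normalization and 39 with the replicate block. Leaving out 1 library it ran from 0 to 350, with 350 without control replicate 1 and 53 without control replicate 2. For the other genes of the system it ran from 0 to 2. The labels do not say that replicate numbers pair libraries, and the deviations of same-numbered libraries correlated at -0.21 across genes. The replicate block changed no call of the 9 genes. Leaving out 1 library, the log2 ratio difference ran from 0.08 to 0.47 for MMP7 to TIMP1 and from 0.05 to 0.36 for the sums. It took both signs for MMP14 to TIMP2 (-0.11 to 0.10), MMP1 to TIMP1 (-0.17 to 0.25) and TIMP2 to TIMP1 (-0.11 to 0.30). Depth is unknown, so the counting error of genes near 0 such as MMP9 cannot be given.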
